A study of Mus musculus with 6 samples.

Results

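Among the cells of 4T1 mammary tumours profiled by Drop-seq, 138 non-cycling tumour cells were chosen for messenger RNA of any of the secreted factors Csf3, Cxcl5 and Pthlh. They made up 2.05% of the 6730 barcodes with at least 200 detected genes and were 138 of 1826 non-cycling tumour cells. A barcode counted as a tumour cell with at least 2 unique molecular identifiers (UMIs, which count single messenger RNA molecules) summed over Krt8, Krt18, Krt7 and Epcam, at most 1 over the macrophage genes C1qa, C1qb and C1qc, and at most 2 over Krt5, Lgals7, Wfdc18 and Prlr of skin and mammary luminal epithelium. It was non-cycling with at most 2 UMIs over Birc5, Ube2c, Ccna2, Cdc20, Top2a, Mki67, Cdk1 and Prc1. The 138 cells, called members below, also had at least 2 UMIs summed over Cxcl5, Csf3 and Pthlh. The other 1688 non-cycling tumour cells had fewer. The levels of these 3 genes chose the cells, so they are described without a test.

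Csf3 encodes granulocyte colony-stimulating factor, which drives the bone marrow to make and release neutrophils. Cxcl5 encodes a chemokine that draws neutrophils through the receptor Cxcr2, and Pthlh encodes parathyroid hormone-related protein, which acts through Pth1r and stimulates bone breakdown when tumours secrete it. The 4T1 line is a mouse mammary carcinoma known for metastasis to bone and lung and for a strong rise of neutrophils in its host.

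The tumours grew from 4T1 cells in Balb/c mice and were dissociated with DNase I and Liberase TL. In the FVIO-MHT group (3 libraries) FVIO particles were injected into the tumour at 0.1 mg per cm3 of its volume, followed by 10 min in an alternating magnetic field of 365 kHz and 24 hours of waiting. This warming of magnetic iron oxide rings is called mild magnetic hyperthermia. The PBS group (3 libraries) was taken at 24 hours. All 6 samples carry 1 protocol text, which does not tell if the magnetic field was applied to PBS mice; age, sex and whether replicates are separate mice are likewise unstated. The p-values therefore measure only the spread between these libraries.

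The libraries differed in ways that bear on these cells. Total depth was 706300 to 2207534 UMIs in FVIO-MHT libraries and 678337 to 2100443 in PBS libraries. FVIO-MHT replicate 1 had 0 tumour cells among 332 kept barcodes. Barcodes with at least 5 S100a8 and S100a9 UMIs, no keratin or Epcam UMI and at most 1 C1q UMI, called neutrophil barcodes here, made up 74.7, 31.6 and 0% of kept barcodes of the FVIO-MHT libraries, in replicate order, and 5.56, 0.410 and 0.830% of those of the PBS libraries. PBS replicates 2 and 3 shared 33 kept barcode sequences, whose paired profiles correlated with a median r of 0.55 across genes against 0.25 for unmatched pairs. None of the 33 was a member. They were 2.26% and 6.85% of the kept barcodes of those libraries, and FVIO-MHT replicate 2 shared 1 barcode with each of them.

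Members carried markers of epithelial tumour cells, in part because the rule asks for them, and also some of other cells. The 9 epithelial markers, 4 of which belong to the rule, were summed as counts per 1000000 UMIs of the summed cells (CPM). They stood at 3429 and 2849 CPM in members of FVIO-MHT replicates 2 and 3, against 3841 and 7401 CPM in the other non-cycling tumour cells. In PBS replicates 1, 2 and 3 members held 2964, 5922 and 9011 CPM of these markers, and the others 5684, 5270 and 5583 CPM. The rule's Krt8, Krt18, Krt7 and Epcam gave 181, 124, 13 and 23 of the 407 such UMIs in members of PBS replicate 1. All 5 markers outside the rule (Krt19, Cldn4, Cldn7, Cdh1 and Spint2) were detected in members. The 3 endothelial markers Pecam1, Cdh5 and Kdr were at 0. All 7 neutrophil and all 5 fibroblast markers were detected. So were 4 of 5 skin keratinocyte, 3 of 4 mammary luminal and 1 of 3 pericyte markers, with Krt5, Lgals7, Wfdc18 and Prlr limited by the rule. Of 9 macrophage markers, 3 of which the rule limits, 7 were detected and C1qc and Csf1r were at 0. The 9 summed to 137 and 475 CPM in members of FVIO-MHT replicates 2 and 3, and to 7.28, 138 and 202 CPM in members of PBS replicates 1 to 3. Of 4 T cell markers 1 was detected, with Cd3d, Cd3e and Cd3g at 0, of 3 B cell markers 1, with Cd79b and Ms4a1 at 0, and of 5 erythroid markers 2, with Hba-a1, Hba-a2 and Alas2 at 0. The 7 neutrophil markers summed to 1143 and 158 CPM in members of FVIO-MHT replicates 2 and 3, and to 189, 15.4 and 101 CPM in members of PBS replicates 1 to 3. Of the 92 such UMIs in FVIO-MHT replicate 2, 44 lay in 1 cell. In FVIO-MHT replicate 3, 1 member held 74 of the 78 UMIs of the 5 fibroblast markers, and the members of that library summed to 12348 CPM of them, against 43.7 to 304 CPM in PBS libraries. In all, 7 of the 138 members had 5 or more UMIs of haemoglobin, neutrophil, T cell, B cell and fibroblast markers. No doublet caller was run.

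Most members came from 3 libraries. FVIO-MHT replicates 1, 2 and 3 held 0, 28 and 5 members, and PBS replicates 1, 2 and 3 held 69, 27 and 9. As a share of kept barcodes this was 0, 2.67 and 0.215% with FVIO-MHT, and 6.39, 1.85 and 1.87% with PBS. The 0 of 332 in FVIO-MHT replicate 1 allows a share of up to 0.904% at 3 counts. The groups overlapped: FVIO-MHT replicate 2 lay above 2 of the 3 PBS libraries. The mean share was 0.961 ± 1.48% in FVIO-MHT libraries, against 3.37 ± 2.62% in PBS libraries (SD over 3 libraries in either group), a difference of −2.41 percentage points (two-sided exact permutation p = 0.3, adjusted over 2 share tests 0.6; the smallest p that 3 against 3 allow is 0.1).

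Among non-cycling tumour cells the shares spread more widely. Members were 28 of 112 such cells in FVIO-MHT replicate 2, or 25.0% (95% Clopper-Pearson interval 17.3 to 34.1%), and 5 of 731 in FVIO-MHT replicate 3, or 0.684% (0.222 to 1.59%). In PBS replicates they were 69 of 209, or 33.0% (26.7 to 39.8%), 27 of 657, or 4.11% (2.73 to 5.92%), and 9 of 117, or 7.69% (3.58 to 14.1%). Intervals and limits cover counting error only. The intervals of libraries within a group did not overlap for FVIO-MHT replicates 2 and 3, nor for PBS replicate 1 against PBS replicates 2 and 3. The means were 12.8 ± 17.2% with FVIO-MHT (SD, n = 2, replicate 1 left out for want of tumour cells) and 14.9 ± 15.8% with PBS (SD, n = 3), with an exact permutation p of 0.8 (adjusted 0.8; smallest possible 0.2). This difference of −2.10 points was 10.1 without FVIO-MHT replicate 3 and 6.94 without PBS replicate 1.

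**Figure D1:**
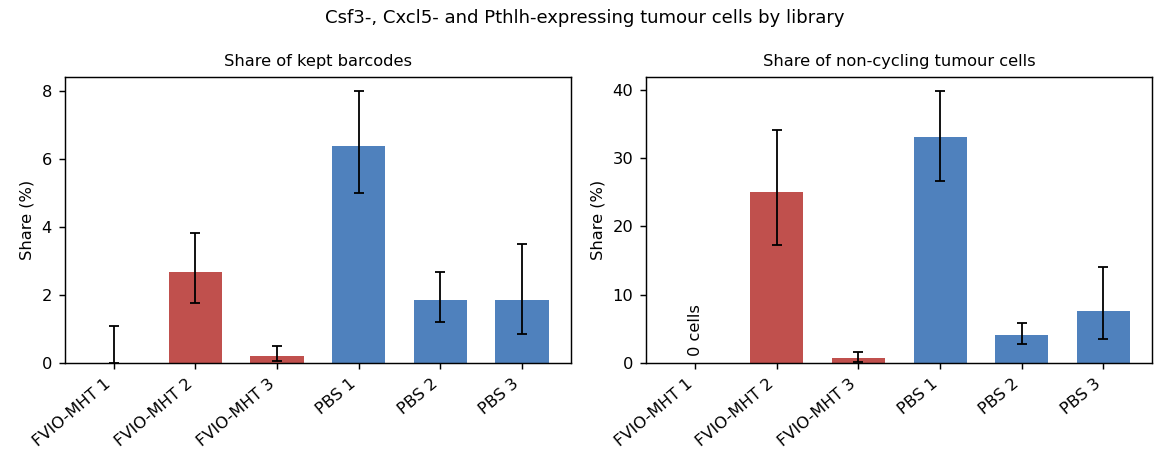
Share of members by library, in percent of kept barcodes (left panel) and of non-cycling tumour cells (right panel); red bars are FVIO-MHT, blue bars PBS, and error bars are 95% Clopper-Pearson intervals. FVIO-MHT replicate 2 (25.0%) and PBS replicate 1 (33.0%) stand above the other libraries in the right panel, and FVIO-MHT replicate 1 had no tumour cell.

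A rule that counts UMIs picks deep cells more readily. Members had a median of 2796 and 336 UMIs in FVIO-MHT replicates 2 and 3, where the other non-cycling tumour cells had 1228 and 474.5. In PBS replicates 1, 2 and 3 members had 1750, 1830 and 802 UMIs, and the others 1014, 1217 and 1002. With every cell thinned to 500 UMIs and the rule applied anew, the shares of non-cycling tumour cells were 6.67 and 0% in FVIO-MHT replicates 2 and 3, and 11.97, 0.988 and 6.35% in PBS replicates 1 to 3. These were 4 of 60 and 0 of 385 cells with FVIO-MHT, and 14 of 117, 4 of 405 and 4 of 63 cells with PBS, from a single random draw. At equal depth FVIO-MHT replicate 2 and PBS replicates 1 and 3 kept the larger shares, on these few members. The 500 UMIs left out 533 and 1394 kept barcodes of FVIO-MHT replicates 2 and 3, and 554, 403 and 179 of PBS replicates 1 to 3.

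Pooled over libraries, Csf3 was detected in 97 of 138 members (70.3%, interval 61.9 to 77.8%), Cxcl5 in 68 (49.3%, 40.7 to 57.9%) and Pthlh in 52 (37.7%, 29.6 to 46.3%). The order differed between libraries. In PBS replicates 1, 2 and 3 Csf3 was in 50, 15 and 9 members, Cxcl5 in 44, 9 and 2, and Pthlh in 24, 8 and 1. In FVIO-MHT replicates 2 and 3 Csf3 was in 22 and 1 members, Cxcl5 in 12 and 1, and Pthlh in 16 and 3, so Pthlh came before Cxcl5 in both. Members with a single one of the genes numbered 35 with Csf3, 20 with Cxcl5 and 15 with Pthlh. A further 31 had Csf3 with Cxcl5, 20 Csf3 with Pthlh, 6 Cxcl5 with Pthlh and 11 all 3 genes. Members with more than 1 of the genes were 18 of 28 in FVIO-MHT replicate 2 and 0 of 5 in FVIO-MHT replicate 3, against 42 of 69, 5 of 27 and 3 of 9 in PBS replicates 1, 2 and 3.

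**Figure D2:**
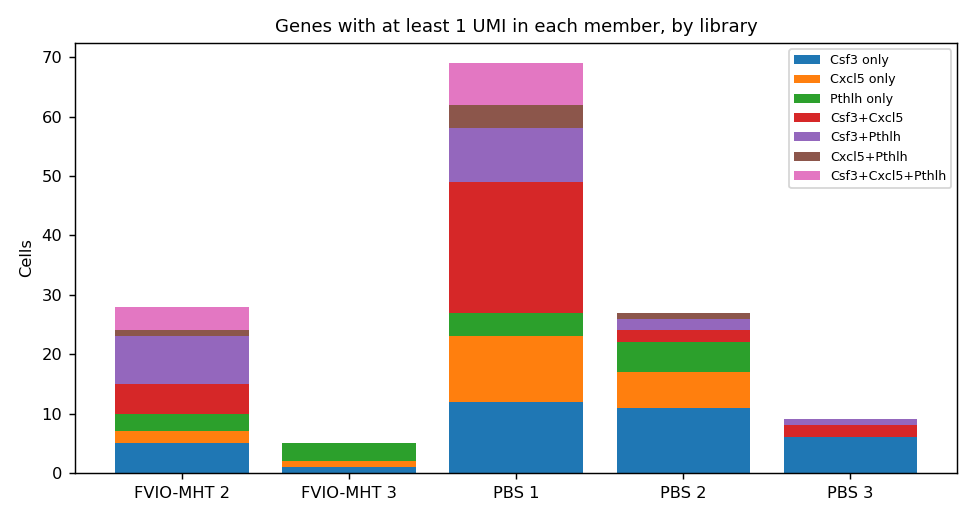
Number of members by the genes with at least 1 UMI in them, stacked by library, FVIO-MHT replicates at the left. Csf3 with Cxcl5 is the largest class in PBS replicate 1 (22 of 69 cells), Csf3 with Pthlh in FVIO-MHT replicate 2 (8 of 28), and Csf3 alone in PBS replicate 2 (11 of 27).

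The summed levels in members also differed between libraries. Csf3 (ENSMUSG00000038067, chromosome 11, 98701263 to 98703629, plus strand, GRCm38) stood at 1131 and 317 CPM in members of FVIO-MHT replicates 2 and 3, and at 1056, 600 and 3139 CPM in members of PBS replicates 1, 2 and 3. The value of 317 CPM rests on 2 UMIs and that of 3139 CPM on 31 UMIs in 9 cells. Cxcl5 (chromosome 5, 90759360 to 90761624, plus strand) stood at 422 and 1266 CPM with FVIO-MHT, and at 867, 323 and 202 CPM with PBS. All 8 Cxcl5 UMIs of FVIO-MHT replicate 3 lay in 1 member, the cell with 74 fibroblast marker UMIs. Pthlh (chromosome 6, 147252101 to 147264183, minus strand) stood at 385 and 1425 CPM with FVIO-MHT, and at 269, 292 and 101 CPM with PBS. For Csf3 and Cxcl5 the groups overlapped. For Pthlh both FVIO-MHT libraries lay above the 3 PBS libraries, with 31 and 9 UMIs in FVIO-MHT replicates 2 and 3 against 37, 19 and 1 in PBS replicates 1, 2 and 3. Pthlh chose the cells, so this order is not read as a treatment difference. Members of FVIO-MHT replicate 3 had a median of 336 UMIs, where few UMIs give a high CPM. The other non-cycling tumour cells held 83.5 and 11.4 CPM of Pthlh with FVIO-MHT, and 84.5, 18.3 and 62.6 CPM with PBS.

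The threshold of 2 UMIs divided a graded distribution of UMI counts. Of the 1826 non-cycling tumour cells, 1515 had 0 UMIs of the 3 genes, 173 had exactly 1, 53 had exactly 2, 27 had 3 and 58 had 4 or more. Just inside the threshold Csf3 stood at 524 CPM over the 53 cells and Cxcl5 at 368 CPM, and just outside it at 285 and 152 CPM over the 173 cells. The UMIs of these genes define the bins, so this order follows from the binning. Cycling tumour cells were left out by the rule, and 54 of 470 of them also had 2 or more UMIs, at a median depth of 1991 UMIs per cycling cell.

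Each gene can also be read in cells that the other genes chose. Taking non-cycling tumour cells with at least 2 summed UMIs of 2 of the genes leaves the remaining gene out of that choice. All 3 genes entered the rule with these cells in view, so the levels are a description and no support for the class. In cells chosen by Cxcl5 and Pthlh, Csf3 stood at 941 CPM against 339 CPM in the rest in FVIO-MHT replicate 2, at 762 against 449 CPM in PBS replicate 1 and at 218 against 57.4 CPM in PBS replicate 2. In FVIO-MHT replicate 3, with 4 chosen cells, it was 0 against 41.5 CPM. In cells chosen by Csf3 and Pthlh, Cxcl5 stood at 296 against 124 CPM in FVIO-MHT replicate 2, 545 against 358 CPM in PBS replicate 1, 45.7 against 41.0 CPM in PBS replicate 2 and 108 against 39.0 CPM in PBS replicate 3, the last from 1 UMI. In cells chosen by Cxcl5 and Csf3, Pthlh stood at 306 against 159 CPM in FVIO-MHT replicate 2, but at 144 against 184 CPM in PBS replicate 1, 19.9 against 37.0 CPM in PBS replicate 2 and 0 against 69.5 CPM in PBS replicate 3. In FVIO-MHT replicate 3 the chosen cells held 0 CPM of Cxcl5 against 26.4 CPM in the rest, and 0 CPM of Pthlh against 28.4 CPM. In the chosen cells Csf3 was thus higher in 3 of 4 libraries, Cxcl5 in 4 of 5, and Pthlh in 1 of 5, FVIO-MHT replicate 2.

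The 3 genes were not confined to members. Of 337 kept barcodes with at least 2 of their UMIs, 138 were members, 54 were cycling tumour cells, 97 had no keratin or Epcam UMI and 39 had 1. Cxcl5 was also found in fibroblast barcodes (at least 5 UMIs of Col1a1, Col1a2, Col3a1, Dcn and Pdgfra and no keratin or Epcam UMI). Members held 615 CPM and 197 fibroblast barcodes 848 CPM over all libraries, but without FVIO-MHT replicate 2, which gave 95 of the 157 fibroblast UMIs, members held 686 CPM and fibroblast barcodes 537 CPM. In members of PBS replicates 2 and 3 Cxcl5 stood at 323 and 202 CPM, and in their fibroblast barcodes at 0 and 84.1 CPM. Csf3 stood at 214 CPM in 650 neutrophil barcodes. In FVIO-MHT replicate 1, a library with no tumour cell, it was 332 CPM in neutrophil barcodes and 379 CPM in barcodes under 200 genes, and in FVIO-MHT replicate 2 it was 58.1 and 187 CPM. In these libraries the neutrophil level did not exceed that of barcodes under 200 genes, which may be free RNA or shallow cells. In FVIO-MHT replicate 1 those barcodes also held 8025 CPM of Lcn2, against 9087 CPM in neutrophil barcodes. They are therefore no clean background, and whether neutrophils express Csf3 was not tested. In PBS replicate 1 neutrophil barcodes held 526 CPM of Csf3, from 15 UMIs in 3 of 60 barcodes, against 49.9 CPM in barcodes under 200 genes. Without FVIO-MHT replicate 2 the neutrophil level was 353 CPM, and without FVIO-MHT replicate 1 it was 127 CPM. Pthlh had 2 UMIs in the 650 neutrophil and 1 in the 197 fibroblast barcodes, and 29 in 23270 barcodes under 200 genes. In 230 macrophage barcodes (at least 3 C1q UMIs and no keratin or Epcam UMI), which should lack the genes, Cxcl5 and Pthlh were seen in 0, which allows a share of up to 1.30%, and Csf3 in 2 (0.870%). Their median depth was 645.5 UMIs, and that of members was 1822.5. In 43 T cell barcodes, at a median of 498 UMIs, Csf3 and Cxcl5 were each seen in 1 of FVIO-MHT replicate 2, with 15 UMIs of Cxcl5, and Pthlh in 0, which allows up to 6.98%.

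Cxcl1 was the gene that set members apart from the other non-cycling tumour cells. It encodes a chemokine that, like Cxcl5, draws neutrophils through Cxcr2 (ENSMUSG00000029380, chromosome 5, 90891241 to 90893115, plus strand, GRCm38). Members held 994 and 2216 CPM of Cxcl1 in FVIO-MHT replicates 2 and 3, where the others held 351 and 125 CPM. In PBS replicates 1, 2 and 3 members held 2039, 3830 and 2227 CPM, and the others 966, 1671 and 689 CPM. Members were higher in 5 of 5 libraries, but the value of FVIO-MHT replicate 3 rests on 14 UMIs, 12 of them in the member with 74 fibroblast marker UMIs. Without that cell its other 4 members held 542 CPM, from 2 UMIs. In the fit over the 3 libraries with at least 20 members (FVIO-MHT replicate 2, PBS replicates 1 and 2), with library as a block, the log2 fold change was 1.23 ± 0.15 (SE; edgeR quasi-likelihood test, adjusted p = 0.000494). Of 2568 genes tested, leaving out those the rule used, 1 passed an adjusted p of 0.05, or 0.0389%, while 155 (6.04%) had an unadjusted p under 0.05. The comparison describes what goes with the rule's genes, since the rule was made with these cells in view. With counts thinned to 500 UMIs a cell and shallower cells left out, the difference was 1.32 (edgeR adjusted p = 0.000840). Members were there still those chosen at full depth, so this thinning does not undo the choice of deeper cells. Without FVIO-MHT replicate 2 the difference was 1.12 and without PBS replicate 1 it was 1.28, and neither passed (edgeR adjusted p = 0.123 and 0.152). It did not pass with at least 3 UMIs for members or with no library block either (adjusted p = 0.271 and 0.999). Cxcl1 also stood at 2816 CPM in fibroblast barcodes, and at 1438 CPM without FVIO-MHT replicate 2, which gave 355 of their 521 UMIs. The difference between members and the others was 1.35 without cells that held 5 or more UMIs of other cells' markers (adjusted p = 0.00210).

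The genes that followed by p were Lcn2 and Nfkbia, which did not pass. Lcn2 encodes lipocalin-2, which binds bacterial iron carriers and is made by inflamed epithelium and neutrophils. It stood at 907 and 158 CPM in members of FVIO-MHT replicates 2 and 3, against 242 and 96.8 CPM in the others, and at 1857, 400 and 1519 CPM in members of PBS replicates 1 to 3, against 905, 268 and 462 CPM. Its log2 difference was 1.14 ± 0.22 (edgeR adjusted p = 0.0663), and it passed without PBS replicate 2 (1.36, adjusted p = 8.05e-06). Nfkbia, which encodes the NF-κB inhibitor IκBα and is itself an NF-κB target, stood at 1590 and 5541 CPM in members against 1236 and 947 CPM in the others with FVIO-MHT, and at 4304, 3953 and 2734 CPM against 2860, 2080 and 1425 CPM with PBS. Its log2 difference was 0.66 ± 0.13 (edgeR adjusted p = 0.0961). With libraries of at least 5 members, a setting chosen after seeing the data, Lcn2, Nfkbia and Nfkbiz passed. Lcn2 and Nfkbia were higher in members of the 3 libraries of the fit and of PBS replicate 3. The values in members of FVIO-MHT replicate 3 rest on 1 UMI of Lcn2 and 35 of Nfkbia, of which 30 lay in the member with fibroblast markers. The other 4 members held 1356 CPM of Nfkbia, from 5 UMIs. Lcn2 also stood at 956 CPM in neutrophil barcodes of FVIO-MHT replicate 2 and at 1473 CPM in those of PBS replicate 1, near the 907 and 1857 CPM in members there. It reached 9087 CPM in those of FVIO-MHT replicate 1, and the part of such RNA in the difference was not tested.

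The promoters of Cxcl1, Lcn2 and Nfkbia are shown because they led the comparison. Each runs from 250 bases before to 50 bases after the gene's start (RefSeq, GRCm38.p6), 5′ to 3′ on the gene's strand. Capitals mark matches to the NF-κB consensus motif of 10 letters on either strand, and overlapping matches run together. The windows are chr5:90890995-90891294 on the plus strand, chr2:32387690-32387989 on the minus strand and chr12:55492598-55492897 on the minus strand.
Cxcl1: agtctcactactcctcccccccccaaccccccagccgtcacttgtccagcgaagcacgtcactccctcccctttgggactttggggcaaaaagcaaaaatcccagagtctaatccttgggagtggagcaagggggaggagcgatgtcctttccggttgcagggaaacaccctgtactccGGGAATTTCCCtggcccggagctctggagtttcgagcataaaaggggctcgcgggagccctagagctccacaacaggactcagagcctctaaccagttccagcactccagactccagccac
Lcn2: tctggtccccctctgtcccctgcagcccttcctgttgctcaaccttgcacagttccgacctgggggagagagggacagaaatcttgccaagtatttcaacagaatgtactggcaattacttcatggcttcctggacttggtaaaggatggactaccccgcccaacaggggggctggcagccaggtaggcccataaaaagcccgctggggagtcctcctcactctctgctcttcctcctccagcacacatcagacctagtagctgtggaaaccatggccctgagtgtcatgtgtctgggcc
Nfkbia: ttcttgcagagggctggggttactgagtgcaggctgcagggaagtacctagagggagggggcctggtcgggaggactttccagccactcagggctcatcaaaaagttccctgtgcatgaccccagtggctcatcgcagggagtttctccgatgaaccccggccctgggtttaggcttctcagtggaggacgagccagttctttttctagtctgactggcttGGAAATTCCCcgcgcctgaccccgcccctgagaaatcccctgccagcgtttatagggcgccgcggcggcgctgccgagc
Cxcl1 held 2 overlapping matches that begin 71 and 70 bases before the start, Nfkbia held 1 that begins 29 bases before it, and Lcn2 held none. Of 32851 promoters of this length, 2779 (8.46%) held at least 1 match. The AP-1 motif TGANTCA, searched on both strands, was in 7.81% of all promoters and in none of these 3. A match is a run of letters and not a measured binding site.

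Other genes of the NF-κB pathway lay on the same side as Nfkbia without passing the test. Of 20 genes in the list of NF-κB targets and regulators, 10 could be tested, 10 were positive and 0 passed, with a median log2 difference of 0.64 where the median of all genes tested was 0.02. Nfkb1, a subunit of the factor, differed by 0.98 ± 0.22, Nfkbiz, an atypical inhibitor that helps activate secondary targets, by 0.81 ± 0.19, and Ier3, an early response gene, by 0.68 ± 0.16 (edgeR adjusted p = 0.174, 0.174 and 0.204). Nfkbiz was higher in members of 5 of 5 libraries, at 596 and 1108 CPM against 334 and 298 CPM with FVIO-MHT and at 1049, 1261 and 911 CPM against 772, 573 and 227 CPM with PBS. Members of FVIO-MHT replicate 3 had 7 UMIs of it, 4 of them in the member with fibroblast markers. Of the list, 5 had an unadjusted p under 0.05, against 6.04% of all genes tested. Its median ran from 0.31 to 0.69 over 13 other settings, and the positive genes were 9 of 10 without FVIO-MHT replicate 2, 7 of 8 with thinned cells and 15 of 19 with no filter on low counts.

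The same genes can be followed by the number of UMIs of the 3 rule genes, as a description. Pooled over libraries, Cxcl1 stood at 915, 1655, 2083, 2117 and 2213 CPM in cells with 0, 1, 2, 3 and 4 or more UMIs. Lcn2 stood at 269, 396, 880, 943 and 1539 CPM, and Nfkbia at 1644, 2248, 3141, 2560 and 3961 CPM. Krt8, by contrast, stood at 1313, 1433, 1482, 1193 and 1195 CPM. Within libraries the order was less even. Cells with exactly 1 UMI, which are not members, lay between cells with 0 and members for Cxcl1 in 4 of 5 libraries, but in PBS replicate 1 they held 847 CPM against 1018 CPM with 0 UMIs. For Lcn2 they lay between in 3 of 5, including PBS replicate 1, where cells with 1 and 0 UMIs held 906 and 905 CPM. In PBS replicate 2 they held 208 CPM of Lcn2 against 276 CPM with 0 UMIs. The median depth was also higher in each later bin, at 782, 1302, 1456, 1678 and 2478 UMIs; its part was not tested.

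**Figure D3:**
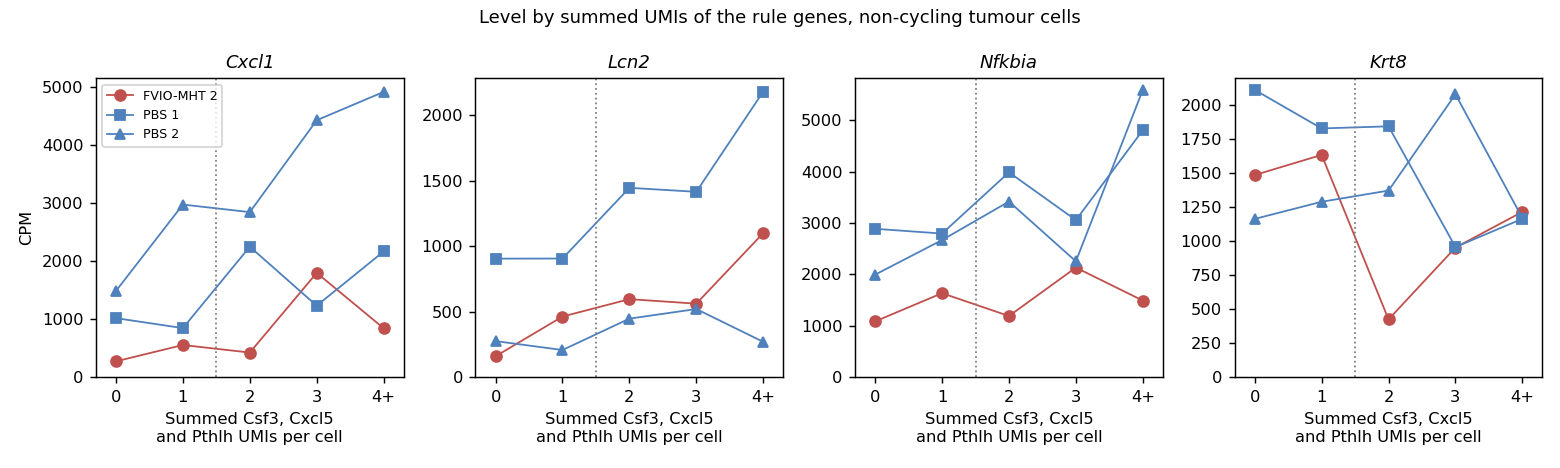
CPM of Cxcl1, Lcn2, Nfkbia and Krt8 in non-cycling tumour cells grouped by their summed Csf3, Cxcl5 and Pthlh UMIs, in the 3 libraries with at least 20 members; the dotted line is the threshold of the rule, red is FVIO-MHT and blue PBS. Within a library the bins are uneven: Cxcl1 in PBS replicate 2 stands at 1487 CPM with 0 UMIs and 4913 CPM with 4 or more, while Lcn2 in that library stands at 276 and 270 CPM.

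Slpi, a protease inhibitor of mucosal surfaces proposed as a marker of these cells, did not pass the test. It stood at 1566 and 2691 CPM in members of FVIO-MHT replicates 2 and 3, against 2146 and 639 CPM in the others, and at 3241, 769 and 2025 CPM in members of PBS replicates 1 to 3, against 2903, 588 and 799 CPM. Its log2 difference was 0.03 ± 0.16 (edgeR adjusted p = 0.974), and the sign turned in 5 of 13 other settings. Krt8, which belongs to the rule, was higher in members of 2 of 5 libraries, PBS replicates 2 and 3.

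**Figure D4:**
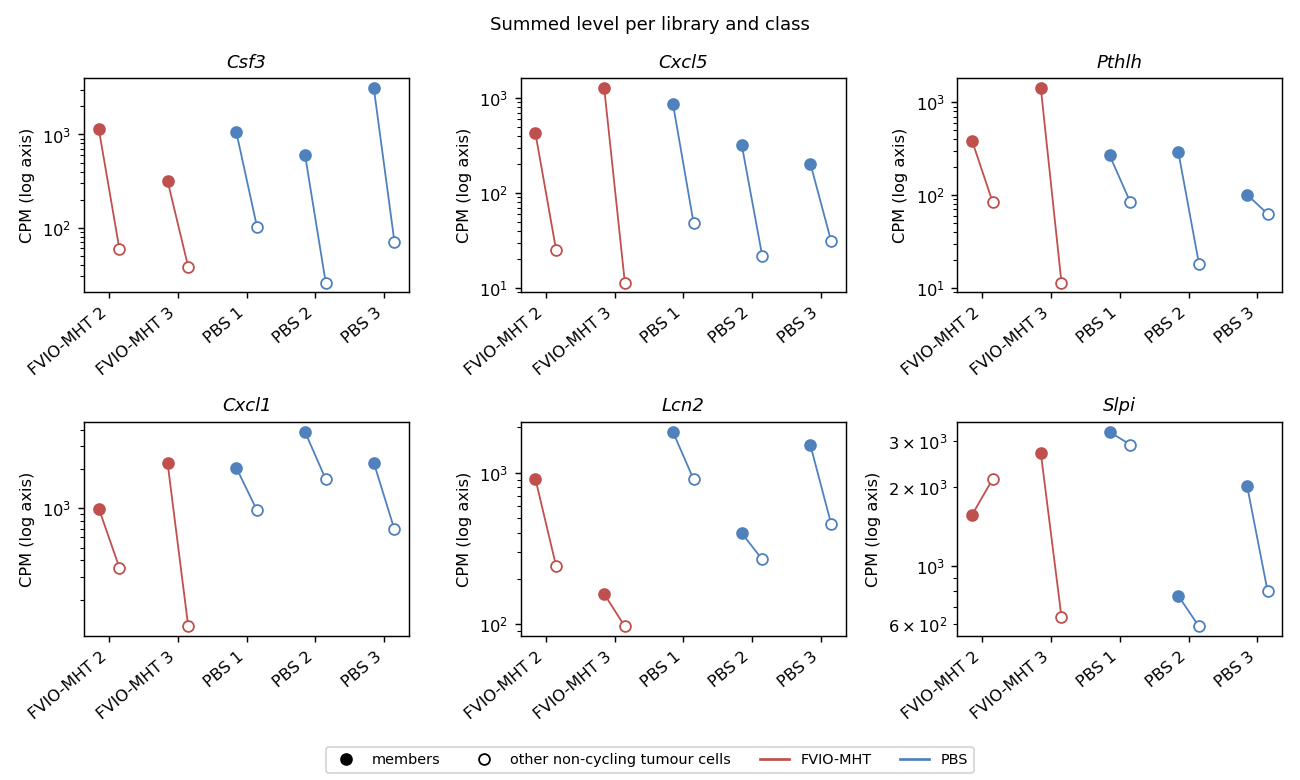
CPM (log axes) of 6 genes in members (filled) and other non-cycling tumour cells (open), joined within each library, red FVIO-MHT and blue PBS. Csf3, Cxcl5 and Pthlh differ by the rule; Cxcl1 and Lcn2 are higher in members of 5 of 5 libraries, in FVIO-MHT replicate 3 on 14 and 1 UMIs, and Slpi in 4 of 5.

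Other neutrophil-recruiting factors were uneven or scarce. Of 14 in the list, 4 could be tested against the other tumour cells and 1, Cxcl1, passed. Cxcl2, another Cxcr2 ligand, stood at 460 and 2849 CPM in members with FVIO-MHT, against 459 and 427 CPM in the others, and at 65.5, 154 and 405 CPM with PBS, against 223, 98.9 and 415 CPM. Of the 18 UMIs behind 2849 CPM, 16 lay in the member with fibroblast markers. Csf1, the macrophage growth factor, stood at 111.8 and 2058 CPM in members of FVIO-MHT replicates 2 and 3, against 108.6 and 100.6 CPM in the others, and at 255, 199.95 and 506 CPM with PBS, against 139, 161 and 101.8 CPM (log2 0.50 ± 0.28, edgeR adjusted p = 0.826). It passed with libraries of at least 5 members (1.19, adjusted p = 0.0397), a setting that adds FVIO-MHT replicate 3, where all 13 Csf1 UMIs lay in the member with fibroblast markers. Il23a, a subunit of interleukin-23, differed by 0.53 ± 0.33 (edgeR adjusted p = 0.859). Ppbp and Cxcl15, further neutrophil chemokines, and Cxcl3 had 0 UMIs in members of the 3 libraries with at least 20 members, and Il6 had 1. Il1b, an inflammatory cytokine that neutrophils also make, reached 236 CPM in members of FVIO-MHT replicate 2, and 7.28 and 30.8 CPM in those of PBS replicates 1 and 2.

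Among bone-active factors other than Pthlh none passed. Of 16 in that list, 3 could be tested and 0 passed, with a median log2 difference of −0.11. Spp1, which encodes osteopontin, a matrix protein that bone cells bind, stood at 2100 and 2849 CPM in members of FVIO-MHT replicates 2 and 3, against 1812 and 4564 CPM in the others, and at 2105, 2615 and 1721 CPM with PBS, against 2402, 3363 and 2584 CPM. Mmp13, a collagenase, stood at 186, 342 and 123 CPM in members of FVIO-MHT replicate 2 and PBS replicates 1 and 2, against 309, 374 and 139 CPM in the others (−0.30 ± 0.25, edgeR adjusted p = 0.908). Members of FVIO-MHT replicate 3 and PBS replicate 3 had 0 Mmp13 UMIs among 6317 and 9877 in all, and no difference from the 43.6 and 117 CPM in the others was detectable at this depth. Adamts1, a secreted protease, differed by 0.36 ± 0.23 (edgeR adjusted p = 0.859), and by 1.03 with libraries of at least 5 members, where it passed (adjusted p = 0.0291). In FVIO-MHT replicate 3, which that setting adds, Adamts1 stood at 3483 CPM in 5 members against 98.7 CPM in the others, and all 22 UMIs lay in the cell with 74 fibroblast marker UMIs. The osteoclast factor Tnfsf11 and its decoy receptor Tnfrsf11b, with Dkk1, an inhibitor of Wnt signalling, had 0 UMIs in members of the 3 libraries. Receptors of these factors were also low: none of 12 in that list could be tested, Pth1r had 0 UMIs in members, and the most abundant, Il1rap, had 29.

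On the lower side no gene passed. S100a6, a calcium-binding protein, was lower in members of 5 of 5 libraries, at 5579 and 9182 CPM against 10163 and 17792 CPM in the others with FVIO-MHT, and at 4333, 5291 and 4050 CPM against 7531, 5725 and 5325 CPM with PBS. Its log2 difference was −0.58 ± 0.13 (edgeR adjusted p = 0.154), and −0.82 without PBS replicate 2, where it passed (adjusted p = 1.46e-06). The MHC class II genes H2-Ab1 and H2-Eb1, which present antigen to helper T cells, differed by −0.85 ± 0.27 and −0.75 ± 0.24 (edgeR adjusted p = 0.564 each). Without PBS replicate 2, H2-Ab1 was −1.22 and passed (adjusted p = 0.000335).

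Other lists had 0 genes past the threshold in this comparison. Iron and oxidative stress genes had a median of 0.41, with 6 of 8 positive: Fth1, the ferritin heavy chain that stores iron, was 0.38 ± 0.09, and Mt1, a metallothionein that binds metals, 0.63 ± 0.17 (edgeR adjusted p = 0.182 and 0.529). Immediate early genes had a median of 0.31 with 12 of 14 positive, where 52.0% of all genes tested were positive. With cells thinned to 500 UMIs their median was −0.00022 with 6 of 12 positive, and that of iron genes 0.36 with 5 of 6. Without thinning, medians were 0.22 for epithelial antimicrobial genes, 0.17 for the unfolded protein response, 0.09 for heat shock, 0.08 for other chemokines, 0.05 for type I interferon, 0.02 for proteases, −0.02 for hypoxia and glycolysis, −0.04 for mesenchymal genes, −0.06 for epithelial identity, −0.14 for MHC class I, −0.26 for p53 targets and −0.27 for cell cycle genes outside the rule. The median of the unfolded protein response was −0.077 with thinned cells.

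**Figure D5:**
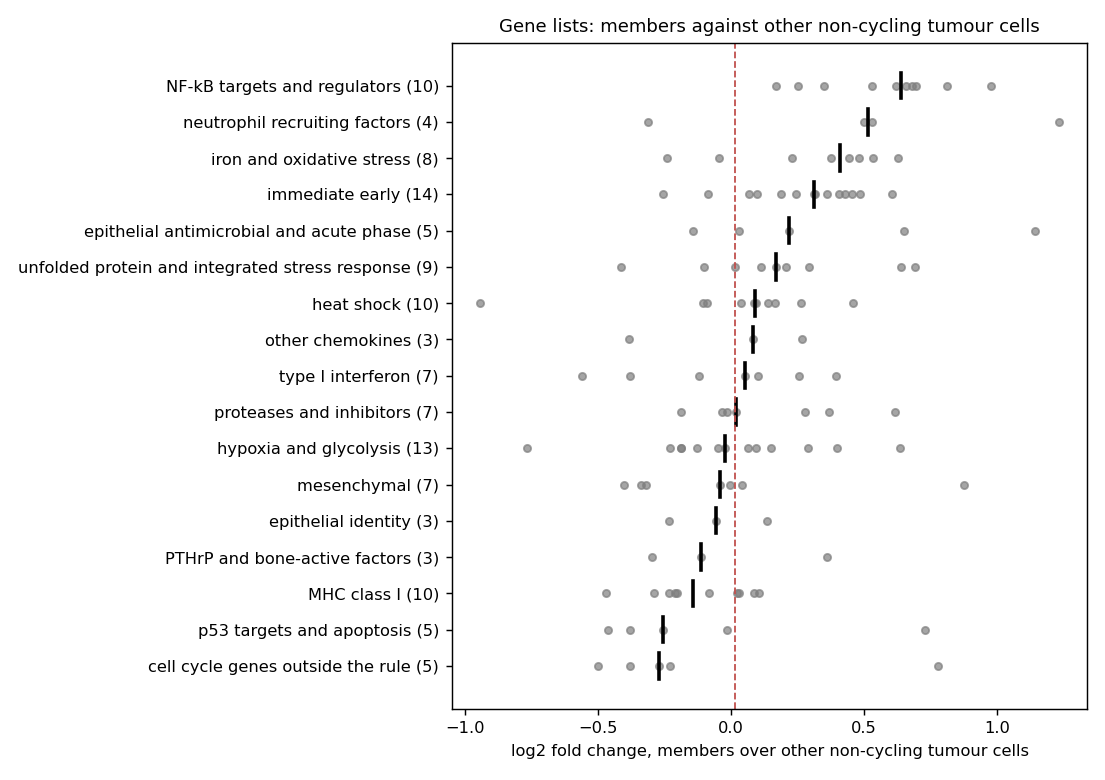
Log2 fold change, members over other non-cycling tumour cells, of each tested gene (dots) in lists with at least 3 tested genes (number in brackets), with list medians (black bars) and the median of all 2568 genes (dashed line, 0.02). All 10 NF-κB genes lie to the right of 0; of the genes shown, Cxcl1 passed the threshold.

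The comparison of FVIO-MHT with PBS within members rests on 1 FVIO-MHT library (replicate 2, 28 members) and 2 PBS libraries (replicates 1 and 2, 69 and 27 members). The lone library is assumed to vary like the PBS libraries. Of 2109 genes 11 passed, or 0.522%, with 3 higher (0.142%) and 8 lower (0.379%), and 99 (4.69%) had an unadjusted p under 0.05. DESeq2 called 0, and 20 genes had an unadjusted p below 0.05. Leaving out the 7 members with other cells' markers also left edgeR 0 calls, and 64 genes below that unadjusted p.

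The genes higher with FVIO-MHT were S100a9, Cxcl2 and mt-Nd4. S100a9, a neutrophil granule protein, stood at 683 CPM in members of FVIO-MHT replicate 2, against 87.4 and 0 CPM in members of PBS replicates 1 and 2 (log2 3.58 ± 0.57, edgeR adjusted p = 8.24e-07). The 7 neutrophil markers and the share of neutrophil barcodes were the highest of these 3 libraries in FVIO-MHT replicate 2 (1143 CPM and 31.6%), and their part in the difference was not tested. These values are not separate from the called gene. S100a9 is itself among the markers and gave 55 of their 92 UMIs in members there, beside 25 of S100a8. It also defines the neutrophil barcodes together with S100a8. S100a8, its partner protein, had a log2 difference of 2.56 ± 0.74 that did not pass (edgeR adjusted p = 0.0889). Cxcl2 stood at 460 CPM, against 65.5 and 154 CPM (2.15 ± 0.58, edgeR adjusted p = 0.0433). With libraries of at least 5 members, 2 against 3, Cxcl2 and S100a9 passed again (3.05 and 3.36) together with Col3a1, a collagen that fibroblasts make and 1 of the 5 fibroblast markers above (5.51). In FVIO-MHT replicate 3 the member with fibroblast markers held 18 of the 20 Col3a1 UMIs and 16 of the 18 Cxcl2 UMIs. The mitochondrially encoded mt-Nd4, a subunit of respiratory complex I named after its value was seen, differed by 2.09 ± 0.49 (edgeR adjusted p = 0.00728). Without the 7 members that held other cells' markers S100a9 differed by 3.34 and did not pass (adjusted p = 0.912).

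The 8 genes lower with FVIO-MHT were Dnajb1, Hsph1, Nfkb1, Tnnt2, Cldn4, Ccl2, Errfi1 and Hes1. Dnajb1 and Hsph1, co-chaperones induced by heat shock, stood at 87.0 and 49.7 CPM in members of FVIO-MHT replicate 2, against 240 and 240 CPM in those of PBS replicate 1 and 1277 and 708 CPM in those of PBS replicate 2. Their log2 differences were −3.08 ± 0.65 and −3.18 ± 0.70 (edgeR adjusted p = 0.00230 and 0.00326). In the other non-cycling tumour cells Dnajb1 stood at 142 CPM in FVIO-MHT replicate 2, against 205 and 917 CPM in PBS replicates 1 and 2. Hsph1 stood at 91.9 CPM in those cells, against 139 and 498 CPM. Of 13 heat shock genes, 9 could be tested, 0 were positive and 2 passed, with a median of −1.48 where all genes had −0.03. Nfkb1 stood at 162 CPM, against 510 and 1138 CPM (−2.34 ± 0.60, edgeR adjusted p = 0.0224). Cxcl1 stood at 994 CPM, against 2039 and 3830 CPM, and did not pass. Of 9 NF-κB genes tested 1 was positive (median −0.96), and of 13 hypoxia and glycolysis genes 12 were positive and 0 passed (median 0.66).

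Of the 3 libraries in the fit, PBS replicate 2 was the highest for each of the 8 lower genes. The lower level of Ccl2 rests on PBS replicate 2 alone, whose members held 42 UMIs of it. Members of FVIO-MHT replicate 2 held 2 and those of PBS replicate 1 held 0, so against PBS replicate 1 Ccl2 was not lower. In the other non-cycling tumour cells Ccl2 stood at 8.35 CPM in FVIO-MHT replicate 2, against 6.03 and 183 CPM in PBS replicates 1 and 2. In PBS replicate 3, outside the fit, Nfkb1 stood at 1215 CPM in members, from 12 UMIs. Tnnt2, a troponin of muscle, stood at 24.9 CPM in members of FVIO-MHT replicate 2, against 153 and 631 CPM. Cldn4, a tight junction protein and the 1 called of 4 tested genes of epithelial identity (median −0.26), stood at 24.9 CPM, against 131 and 600 CPM, and Ccl2, a monocyte chemokine, at 24.9 CPM, against 0 and 646 CPM. Errfi1, a feedback inhibitor of the EGF receptor, stood at 137 CPM, against 291 and 1400 CPM, and Hes1, a Notch target, at 149 CPM, against 299 and 1215 CPM. Without PBS replicate 2 no test was possible with 1 library a group. The log2 differences of Dnajb1, Cldn4, Errfi1 and Hes1 in members were then −1.51, −2.40, −1.14 and −1.05. S100a9 differed by 2.90 without PBS replicate 2. Without PBS replicate 1 it has no finite fold, since PBS replicate 2 had 0 of its UMIs.

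The treatment difference in members differed from that in the other non-cycling tumour cells for 1 of 3895 genes (0.0257%; 223, or 5.73%, had an unadjusted p under 0.05), by a test of the treatment by class term in the same 3 libraries. That gene was H2-Ab1. It stood at 385 CPM in members and 1787 CPM in the others of FVIO-MHT replicate 2, and at 553 and 784 CPM in members and 724 and 898 CPM in the others of PBS replicates 1 and 2. The term was −1.90 ± 0.38 (edgeR adjusted p = 0.00230), while DESeq2 called 0 genes, with 9 at an unadjusted p under 0.05. With libraries of at least 5 members it was −2.07 and did not pass (adjusted p = 1.00). H2-Aa and Cd74, which form and chaperone the same MHC class II complex, had terms of −1.67 ± 0.45 and −1.11 ± 0.32 that did not pass (edgeR adjusted p = 0.179 and 0.335). Macrophage markers in FVIO-MHT replicate 2 summed to 137 CPM in members and 259 CPM in the others, against 7.28 and 138 CPM in members and 12.1 and 139 CPM in the others of PBS replicates 1 and 2, and their part in the term was not tested. On the higher side the lowest p was that of Fos, an immediate early factor (1.12 ± 0.28, edgeR adjusted p = 0.125), which did not pass. It stood at 2994 CPM in members against 1912 CPM in the others with FVIO-MHT, and at 3161 and 1523 CPM against 4242 and 2140 CPM with PBS.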

How the data were processed

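The deposited files are one matrix of whole-number UMI counts per library, with 27998 genes and 5000 barcodes each, that the authors made with STAR 2.7.2b on mm10, per the submitters' processing notes. No source used here gives how UMIs were counted, with which annotation and strand setting, or why these barcodes were kept. Dropping 65 rows that repeat a gene symbol left 27933 genes, of which 27624 identifiers matched GENCODE positions (GRCm38, counted from 1).

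Counts were summed per library over members and over other non-cycling tumour cells, keeping libraries with at least 20 cells of each, and tested with edgeR 4.0.16 in R 4.3.3 (quasi-likelihood, TMM, filterByExpr, Benjamini-Hochberg adjusted p under 0.05 over all genes tested). The genes of the rule were left out of the class tests, and Csf3, Cxcl5 and Pthlh out of the treatment test. Standard errors are the log2 fold change divided by the square root of F. DESeq2 1.42.0 served as an alternative. Shares have 95% Clopper-Pearson intervals and limits of 3 counts, which cover counting error only, and were compared by exact permutation over libraries. No doublet caller was run; an alternative left out cells with at least 5 UMIs of other cells' markers. Replicate numbers pair no samples by any label.

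On simulated counts with known changes, the class test found most of the larger changes and the treatment test a minority. The treatment by class test found none, and what it called there was false.

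Named genes were the markers, the neutrophil-recruiting and bone-active genes with at least 20 UMIs in members, the 8 lowest p per direction (12 in the class comparison) without mitochondrial genes, and up to 4 most abundant genes of other lists. The members, the 18 gene lists and the comparisons were chosen with earlier results of these data known. The fibroblast barcodes, the levels without single libraries and the settings with at least 5 cells and without shared barcodes were chosen after seeing the data. Hspa1a and Hspa1b are nearly identical and are not reported singly.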

Additional observations from a re-analysis of the deposited data

Results flagged for a closer look

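H2-Ab1 is given because its treatment difference in members differed from that in the other non-cycling tumour cells, with a treatment by class term of −1.90 on the log2 scale (edgeR adjusted p = 0.00230; 1 FVIO-MHT against 2 PBS libraries). On the simulated counts described above the same test found none of the known changes, and what it called was false. Over 10 other settings the H2-Ab1 term ran from −2.22 to −1.80, and it passed in 4 of them. Libraries with at least 10 cells gave the same fit, and leaving out shared barcodes removed no member. With at least 3 UMIs for members, and without PBS replicate 1 or 2, the term had a value but no test.

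Barcodes under 200 detected genes, which no comparison uses, held more of 2 rule genes in some FVIO-MHT libraries than in any PBS library. Csf3 reached 379 CPM in the first FVIO-MHT library and 187 CPM in the second, against 49.9, 78.3 and 178 CPM in PBS replicates 1, 2 and 3. Cxcl5 stood at 112 CPM in FVIO-MHT replicate 2, against 31.9, 4.12 and 24.1 CPM in PBS replicates 1, 2 and 3. FVIO-MHT replicate 3 had 34.8 CPM of Csf3 and 19.5 CPM of Cxcl5.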

How the results depend on the processing

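The difference in the share of kept barcodes stayed negative in all 14 alternatives (−5.36 to −0.896 points). The share of non-cycling tumour cells turned sign in 4 of 13: 1.53 points with at least 3 UMIs, 10.1 without FVIO-MHT replicate 3, 6.94 without PBS replicate 1 and 6.94 with a replicate block, and leaving out single libraries gave −14.3 to 10.1. The replicate block left the first difference at −2.41; no residual degrees of freedom remained for the gene tests. The labels tie no number to an animal. Deviations from group means over 6767 genes of all kept barcodes correlated between same-numbered libraries at 0.18, 0.019 and −0.11. Between libraries of different numbers the values ran from −0.27 to 0.36. With such a spread they cannot tell if libraries of the same number share an animal or a day.

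Against the 1 gene called between members and other tumour cells there were 2 with DESeq2, 4 without the filter on low counts (median of all genes −0.25), 0 with at least 3 UMIs, 0 without the library block, 9 with libraries of at least 5 cells, and 0 to 5 when single libraries were left out (5 without PBS replicate 2). Within members, 11 calls became 0 with DESeq2, 6 with library totals, 0 without the filter, 0 without cells with other markers and 3 with at least 5 cells. The treatment by class call became 0 with DESeq2 and 0 without the filter; with at least 5 cells the 1 call was another gene, Egr2 (5.36, higher; its 8 UMIs in members of FVIO-MHT replicate 3 lay in the cell with fibroblast markers), and H2-Ab1 did not pass. Leaving out a library, or requiring 3 UMIs, left both treatment fits values but no test. Causes were not tested.

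Slpi turned to −0.092 without the filter, −0.097 with at least 3 UMIs and −0.065 when thinned, and ran from −0.11 to 0.23 over single libraries left out. Cxcl2 turned to 0.089 when thinned and 0.22 with at least 5 cells (−0.69 to 0.20 over libraries left out), Spp1 to 0.0057 (−0.29 to 0.0057) and Adamts1 to −0.052 (−0.052 to 0.50). The settings with at least 5 cells and without shared barcodes were chosen after seeing the data.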

Other observations

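The genes here were named after their values were seen. Plet1, a surface protein of epithelial progenitors, was higher in members when libraries with at least 5 cells of each class were used (log2 1.33 ± 0.30, edgeR adjusted p = 0.00546, 2 FVIO-MHT and 3 PBS libraries). Ptgs2, which encodes the prostaglandin synthase COX-2, was also higher there (1.05 ± 0.28, edgeR adjusted p = 0.0434) and when PBS replicate 2 was left out (1.09 ± 0.27, edgeR adjusted p = 0.0335). Of its 10 UMIs in members of FVIO-MHT replicate 3, 7 lay in the cell with fibroblast markers, and Plet1 had 0 there. Ptgs2 stood at 671 CPM in members of FVIO-MHT replicate 2 and averaged 411 ± 407 CPM in members of PBS replicates 1 and 2 (SD, n = 2). With low counts kept, Ptn, a growth factor of mammary luminal cells, was lower in members (−5.15 ± 0.88, edgeR adjusted p = 4.29e-05), with the 4 luminal markers, of which it is 1, at 0 CPM in members and 362 CPM in the others of PBS replicate 1.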
